A study of Rattus norvegicus with 8 samples.

Results

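Transcripts of 10 enzymes of pyrimidine metabolism were followed in rat kidney, chosen by name as Cad, Dhodh, Umps, Ctps1 and Cmpk1 for synthesis and Dpyd, Dpys, Upb1, Upp2 and Dctd for breakdown. They are 10 of the 21416 genes or unnamed transcripts tested, and all 10 passed the detection filter. The APL kidneys came from 10-week-old male SD rats (Sprague-Dawley, an outbred laboratory strain) after 4 weeks of APL at 150 mg/kg. The Control kidneys came from male SD rats of the same age after 4 weeks of 0.5% methylcellulose, a vehicle. APL is read here as allopurinol, the agent that the series title names as producing renal fibrosis, and whether the APL rats also received methylcellulose is not stated in the labels. Each group had 4 samples on 1 single-colour Agilent array each. The labels do not state that the samples of a group were separate animals, so p-values measure the spread between these samples. The title speaks of tubules and the tissue label of kidney, so the measurements are of bulk RNA, in which fewer cells of a type and less RNA per cell cannot be told apart.

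De novo synthesis builds the pyrimidine ring from glutamine, bicarbonate and aspartate and joins it to phosphoribosyl pyrophosphate (PRPP) to give uridine monophosphate (UMP), from which the cytidine and thymidine nucleotides are made. Breakdown frees uracil and thymine from their nucleosides, reduces and opens the ring and ends in beta-alanine and beta-aminoisobutyrate; its ring-opening enzymes are known to be abundant in liver and kidney. Allopurinol inhibits xanthine oxidase, and the nucleotides formed from it and from its product oxypurinol are also known to inhibit orotidylate decarboxylase, an activity of the Umps protein. The arrays report transcript levels and no enzyme activity.

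A relative signal is the processed signal of a probe divided by the 75th percentile of its array. That percentile was 455 ± 53 in APL arrays and 291 ± 18 in Control arrays (SD, n = 4 each), a ratio of 1.56 (exact two-sided permutation test, p = 0.0286, the lowest value that 4 arrays against 4 can give). Each of the 2 slides carried 2 APL and 2 Control arrays and was scanned once, so slide and scan are the same split. Across tested genes the arrays correlated at 0.919 to 0.961 within APL, 0.897 to 0.937 within Control and 0.802 to 0.858 between the groups, and Control replicate 3 stood apart on the second principal component. All 15 markers of proximal tubule and all 8 of other nephron segments passed the detection filter, although Slc5a12 was well above background on 1 of 4 Control arrays and Calb1 on 3 of 4 arrays of each group.

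Of the 5 breakdown transcripts 3 fell deeply in APL kidneys, and 1 was called higher that was well above background on no Control array, whereas of the 5 synthesis transcripts 1 rose and 1 fell, each by less than 2 on the log2 scale. Dpys, Upb1 and Upp2, which act along the breakdown route, fell, with log2 fold changes of -7.10, -6.26 and -4.40. Dctd, counted with breakdown by the rule although its product feeds thymidylate synthesis, was that transcript; it passed the detection filter through the APL arrays alone, so nothing is read from its count against the share of all genes called. Of the synthesis enzymes Ctps1 rose, Cmpk1 fell, and Cad, Dhodh and Umps did not pass the threshold, which was an adjusted p under 0.05 in limma after Benjamini-Hochberg adjustment over all genes tested. Thus 3 of 5 breakdown genes were lower and 1 higher, and 1 of 5 synthesis genes was lower and 1 higher. Over all genes tested 23.5% were called, 11.5% lower and 11.9% higher. The median log2 fold change, APL over Control, was -4.40 for the breakdown genes and 0.21 for the synthesis genes, beside -0.03 over all genes tested. Each set median is the value of 1 gene, Upp2 for breakdown and Dhodh for synthesis. Upp2 was well above background on only 2 of 4 APL arrays, and the standard error of Dhodh was 0.72. With Dctd at its bound the breakdown median is the same, since that gene is above the median either way. After normexp background correction the breakdown median, again that of Upp2, was -0.75 (values scaled to the 75th percentile) or -1.19 (values quantile normalized). The synthesis median turned sign under quantile normalization (-0.03) and normexp with quantile normalization (-0.11). It also did so without APL replicate 4 (-0.04), Control replicate 2 (-0.32) or Control replicate 4 (-0.08). The APL values lay wholly above the Control values for 1 synthesis gene, Ctps1, beside 14.0% of all genes tested. They lay wholly below them for 2 synthesis and 3 breakdown genes, beside 15.9%. Those of Dctd also lay wholly above, but nothing is read from that, since it passed the detection filter through the APL arrays alone.

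**Figure D1:**
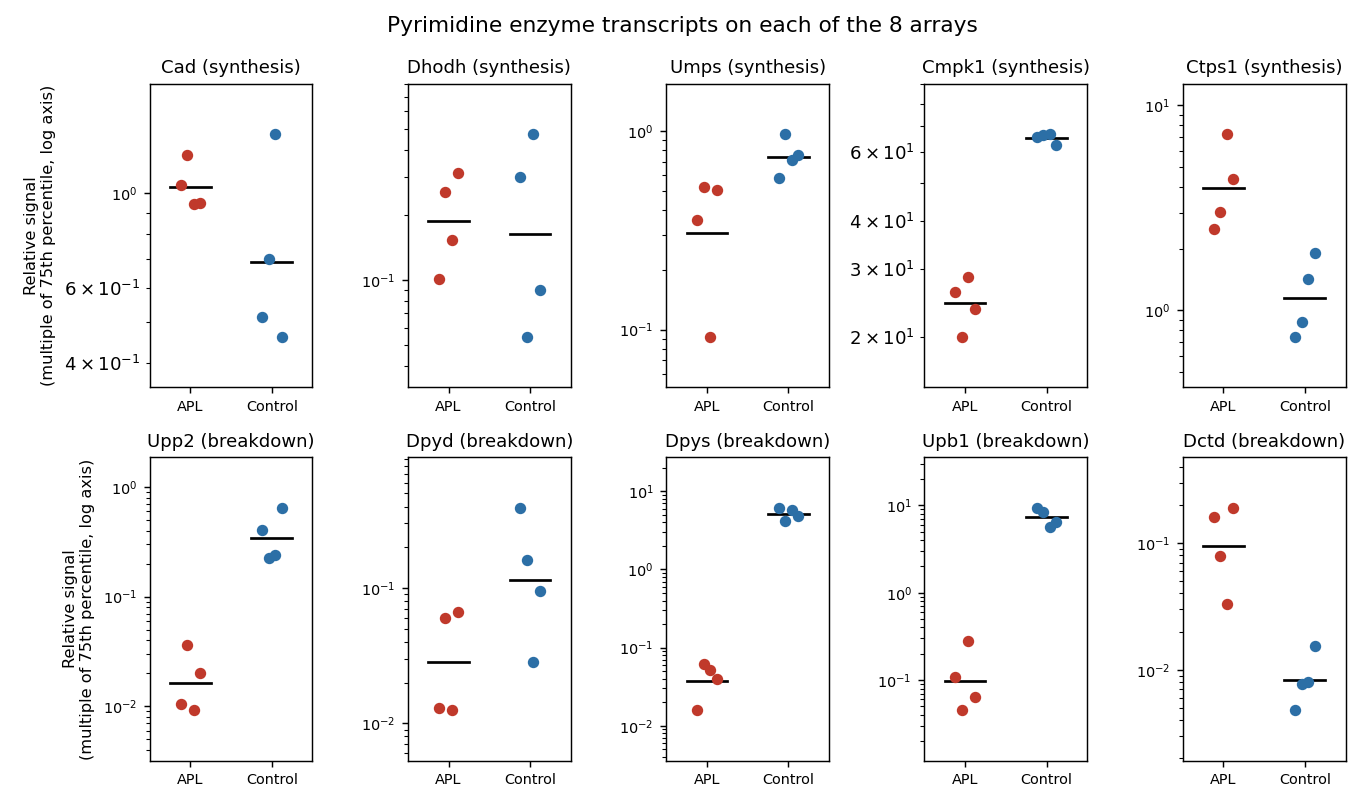
Relative signal of each of the 10 enzyme transcripts (vertical axis, logarithmic, in multiples of the array's 75th percentile) on the 4 APL and 4 Control arrays; each point is an array and each bar the group's mean on the log2 scale. APL arrays lie below every Control array for Dpys, Upb1, Upp2, Cmpk1 and Umps, above every Control array for Ctps1 and Dctd, and overlap with Control for Cad, Dhodh and Dpyd.

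Promoter sequence was matched by symbol for 7 of the 10 genes in the RefSeq table of the rat assembly GRCr8; Dhodh, Umps and Dpys were not matched. The 250 bases before the start are shown for a pair of genes that fell, Upp2 and Upb1, and a pair called higher, Ctps1 and Dctd, so that members moving in opposite directions can be set side by side. Capitals mark every match to CCAAT or GGGCGG on either strand, so a match on the other strand reads ATTGG or CCGCCC.
Upp2 (GRCr8, chr3:63681576-63681825, plus strand): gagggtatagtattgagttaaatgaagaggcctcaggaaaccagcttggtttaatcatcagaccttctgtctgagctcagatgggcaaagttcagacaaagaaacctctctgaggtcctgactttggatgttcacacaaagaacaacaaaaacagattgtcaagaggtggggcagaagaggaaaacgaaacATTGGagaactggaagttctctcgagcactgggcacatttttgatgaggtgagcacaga
Upb1 (GRCr8, chr20:13243017-13243266, minus strand): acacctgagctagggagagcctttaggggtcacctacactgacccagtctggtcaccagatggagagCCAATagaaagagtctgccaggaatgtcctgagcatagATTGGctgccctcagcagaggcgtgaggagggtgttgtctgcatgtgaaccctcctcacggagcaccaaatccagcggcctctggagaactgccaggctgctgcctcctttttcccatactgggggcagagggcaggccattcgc
Ctps1 (GRCr8, chr5:139439383-139439632, minus strand): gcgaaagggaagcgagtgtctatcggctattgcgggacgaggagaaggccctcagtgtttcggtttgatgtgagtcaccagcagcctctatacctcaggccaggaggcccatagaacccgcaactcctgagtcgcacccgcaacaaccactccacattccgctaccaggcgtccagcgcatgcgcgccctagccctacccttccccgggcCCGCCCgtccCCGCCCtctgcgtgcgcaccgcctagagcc
Dctd (GRCr8, chr16:50831160-50831409, minus strand): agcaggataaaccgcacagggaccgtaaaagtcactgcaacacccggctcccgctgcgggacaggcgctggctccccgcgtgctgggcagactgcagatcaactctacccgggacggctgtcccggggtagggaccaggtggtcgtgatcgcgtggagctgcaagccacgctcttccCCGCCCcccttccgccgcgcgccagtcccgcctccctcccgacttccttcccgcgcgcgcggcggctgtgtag
Of these 4 promoters those of Upp2 and Upb1 held CCAAT and no GGGCGG, and those of Ctps1 and Dctd held GGGCGG and no CCAAT. The split does not follow the direction of change over all matched genes: Cmpk1, which fell, held GGGCGG and no CCAAT. In the 7 matched promoters CCAAT was found in 2, Upp2 and Upb1, and GGGCGG in 5, the others being Cad, Cmpk1 and Dpyd, so no match of either motif overlapped one of the other. Of 33469 promoters of this length in the table, 34.0% held CCAAT and 30.5% held GGGCGG. The letters CACGTG (E-box), GTTAAT (a half-site of HNF1), CAAAGTCCA (an HNF4-specific site) and TATAAA, searched on both strands, had no match in these 7 windows. The G and C content was 44.4% for Upp2, 58% for Upb1, 64.4% for Ctps1 and 69.6% for Dctd, beside a median of 51.2% over all promoters.

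Along the breakdown route, uridine phosphorylase comes before the ring is attacked. Upp2, the uridine phosphorylase 2 that splits uridine into uracil and ribose phosphate, had relative signals of 0.0105, 0.0362, 0.00919 and 0.0202 on the APL arrays, against 0.406, 0.224, 0.241 and 0.645 on the Control arrays. Every APL array lay below every Control array, and 2 of the 4 APL arrays were well above background. The log2 fold change of Upp2 was -4.40 ± 0.53 (moderated standard error, n = 4 each; adjusted p = 0.000864), a value of -3.95 on slide 1 and -4.85 on slide 2. It depends on how background is treated: with the normexp correction it was -1.19 after quantile normalization (adjusted p = 0.00245) and -0.75 after scaling to the 75th percentile, where the call was lost (adjusted p = 0.568).

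Dpyd, dihydropyrimidine dehydrogenase, reduces uracil and thymine and is known as the rate-limiting enzyme of the route. Its relative signals were 0.0129, 0.0599, 0.0125 and 0.0662 on the APL arrays, against 0.391, 0.163, 0.0283 and 0.0953 on the Control arrays. The groups overlapped only through Control replicate 3, which lay below APL replicates 2 and 4. The log2 fold change of -2.02 ± 0.91 did not pass (adjusted p = 0.148; 95% interval -4.11 to 0.08), with -3.18 on slide 1 and -0.85 on slide 2. A second Dpyd probe gave -3.38 ± 0.96 in a fit over all probes (adjusted p = 0.0508), and the mean of both probes passed at -2.70 (adjusted p = 0.0395). That second probe was well above background on only 2 of 4 APL arrays. On APL replicate 3 its relative signal of 0.0023 lay under the floor, so both values rest in part on undetected signal. Under normexp with 75th-percentile scaling the value was 0.08 (adjusted p = 0.943).

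Dpys, dihydropyrimidinase, opens the reduced ring. It had relative signals of 0.0158, 0.0616, 0.0511 and 0.0392 on the APL arrays, against 6.11, 4.12, 5.77 and 4.80 on the Control arrays. The groups were far apart, with little spread among the Control arrays. Dpys fell by 7.10 ± 0.42 on the log2 scale (adjusted p = 3.96e-05), 138-fold lower in APL, and stood 38th among all decreases. The change was -7.33 on slide 1 and -6.88 on slide 2, and it kept its call under all 11 other settings and with each array left out in turn. It was dim on the APL arrays, and its size was -3.88 and -4.03 with the normexp correction, followed by the 75th percentile and by quantile normalization.

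Upb1, beta-ureidopropionase, completes the route by releasing beta-alanine or beta-aminoisobutyrate. Its relative signals were 0.107, 0.0451, 0.283 and 0.0633 on the APL arrays, against 9.36, 8.51, 5.71 and 6.54 on the Control arrays. Among the APL arrays replicate 3 was the highest and still far below each Control array. Upb1 fell by 6.26 ± 0.54 on the log2 scale (adjusted p = 0.000192), 76.5-fold lower in APL, with -7.00 on slide 1 and -5.51 on slide 2. Its call, too, held under all 11 other settings and with each array left out, and its value was -4.16 with normexp and the 75th percentile.

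Dctd, deoxycytidylate deaminase, turns dCMP into dUMP, the substrate of thymidylate synthase. Its probe was spotted 10 times on each array. Its relative signals were 0.161, 0.0795, 0.0329 and 0.189 on the APL arrays, against 0.00479, 0.00771, 0.00804 and 0.0155 on the Control arrays. All 4 APL arrays were well above background and no Control array was, so only an approximate bound can be given. On the processed signal Dctd was 5.86-fold or more higher in APL. This bound sets the APL mean against the mean of a detection limit on the Control arrays, taken on each array from its dimmest detected probe, or from Dctd itself where that was brighter. On Control replicate 4 Dctd was brighter than that probe (0.0155 against 0.0151) without being well above background, so the limit is not exact. Dctd passed the detection filter through the APL arrays alone, and Control replicate 1 entered the fit at the floor of 0.005, so no size is given from the main fit. The fit's adjusted p was 0.0048, and it was 0.0434 with normexp and quantile normalization and 0.294 after scaling the normexp values to the 75th percentile, where the call was lost. Within an APL array the 10 spots varied by at most 10.1% (coefficient of variation) and within a Control array by up to 60.5%.

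On the side of synthesis, Cad carries the activities that open the route, carbamoyl phosphate synthetase, aspartate transcarbamylase and dihydroorotase. It had relative signals of 1.04, 1.23, 0.944 and 0.948 on the APL arrays, against 0.514, 0.700, 1.37 and 0.462 on the Control arrays. APL arrays lay close together, above 3 Control arrays and below Control replicate 3. The log2 fold change of 0.58 ± 0.35 did not pass (adjusted p = 0.267; 95% interval -0.23 to 1.40), and was 0.92 on slide 1 and 0.25 on slide 2. Without Control replicate 3 it was 0.91 and passed (adjusted p = 0.0364). Without scaling between arrays it was 1.22 (adjusted p = 0.0204), where the median over all genes was 0.60.

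Dhodh, dihydroorotate dehydrogenase of the inner mitochondrial membrane, makes orotate. It had relative signals of 0.101, 0.254, 0.153 and 0.311 on the APL arrays, against 0.299, 0.0547, 0.471 and 0.0896 on the Control arrays. The groups overlapped throughout, and the Control arrays spread more than the APL arrays. The log2 fold change was 0.21 ± 0.72 (adjusted p = 0.857; 95% interval -1.46 to 1.87), so a change of severalfold in either direction lies within its interval. Its sign turned under quantile normalization with and without normexp, and without APL replicate 4 or Control replicate 2 or 4.

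Umps, which joins orotate to PRPP and decarboxylates the product to UMP, had relative signals of 0.356, 0.520, 0.0923 and 0.504 on the APL arrays, against 0.579, 0.962, 0.716 and 0.759 on the Control arrays. Every APL array lay below every Control array, with APL replicate 3 far below the rest, and 29.9% of all genes tested had groups that did not overlap. The log2 fold change of -1.28 ± 0.55 did not pass (adjusted p = 0.129; 95% interval -2.55 to -0.02). Umps changed by -0.79 on slide 1 and -1.77 on slide 2. It was -0.71 without APL replicate 3 and -0.76 with normexp and quantile normalization, where it passed (adjusted p = 0.0391).

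Cmpk1, the kinase that phosphorylates UMP and CMP, had relative signals of 26.2, 20.1, 28.7 and 23.6 on the APL arrays, against 65.5, 66.6, 66.8 and 62.5 on the Control arrays. The Control arrays were nearly equal, and the APL arrays lay well below them. Cmpk1 fell by 1.42 ± 0.19 on the log2 scale (adjusted p = 0.00134), 2.67-fold lower in APL, with -1.52 on slide 1 and -1.31 on slide 2. The call held under all 11 other settings and with each array left out, and the smallest change was -0.78, without scaling between arrays.

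Ctps1, CTP synthase 1, aminates UTP to CTP. Its relative signals were 2.50, 3.03, 7.23 and 4.38 on the APL arrays, against 0.746, 0.876, 1.43 and 1.90 on the Control arrays. All APL arrays lay above all Control arrays, APL replicate 3 furthest. Ctps1 rose by 1.77 ± 0.43 on the log2 scale (adjusted p = 0.0215), 3.41-fold higher in APL, with 1.77 on both slides. The call was lost without APL replicate 4 (1.72, adjusted p = 0.0591), Control replicate 1 (1.56, adjusted p = 0.0521) or Control replicate 2 (1.64, adjusted p = 0.0554). A second Ctps1 probe gave 1.1 ± 0.90 in a fit over all probes (adjusted p = 0.458), and with the mean of both probes the gene did not pass (1.43, adjusted p = 0.069), nor with normexp values scaled to the 75th percentile (1.41, adjusted p = 0.0971).

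**Figure D2:**
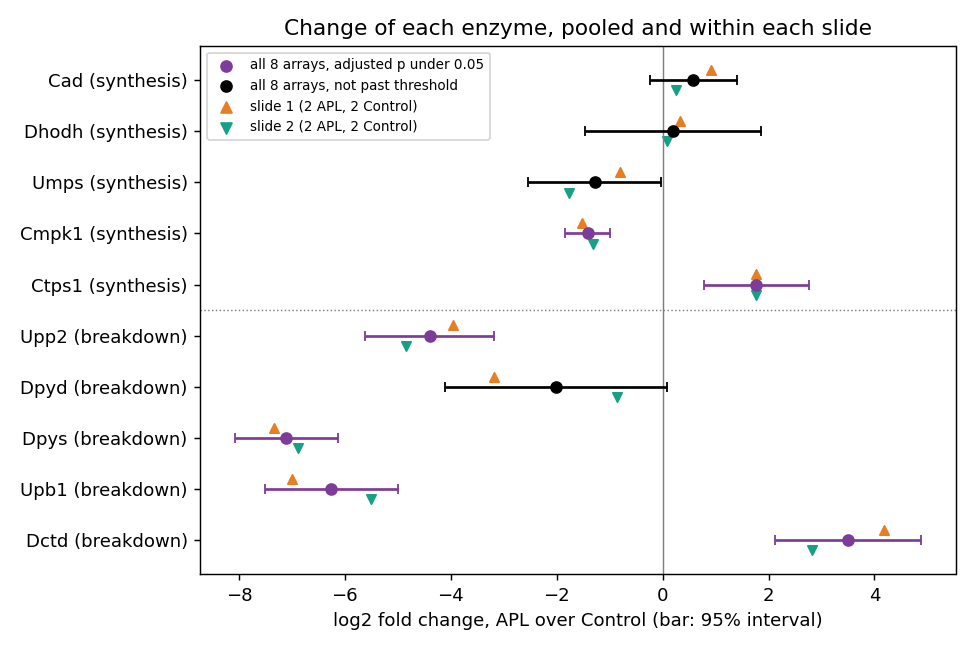
Log2 fold change of each enzyme transcript, APL over Control (horizontal axis; bars are 95% intervals of the fit on 8 arrays), with the change within slide 1 and slide 2 as triangles. In the fit on 8 arrays Dpys, Upb1 and Upp2 lie at -4.40 or below and the synthesis genes between -1.42 and 1.77. Upp2 lies at -3.95 on slide 1, and each gene has the same sign on both slides. Dctd is drawn at its fitted value, for which only a bound holds.

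The arrays could also be read set by set. Measured as deviation from the Control mean, the median over the 5 breakdown genes was -5.03, -3.25, -4.70 and -4.09 on APL replicates 1 to 4, against 0.25, -0.11, -0.37 and -0.10 on Control replicates 1 to 4 (log2). The median over the 5 synthesis genes was -0.68, 0.65, -0.09 and 0.46 on the APL arrays, against -0.36, 0.02, 0.31 and -0.06 on the Control arrays. The breakdown medians of APL arrays were thus all far below those of Control arrays, and the synthesis medians of both groups lay on both sides of 0. The genes were chosen with earlier results known, so these medians carry no test.

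Most markers of proximal tubule were lower in APL kidneys, as were 3 of the 5 breakdown enzymes. Over all genes tested 11.5% were lower and 11.9% higher. Of 15 proximal tubule markers 12 were lower and 2 higher, Slc5a2 and Slc5a12, with a median log2 fold change of -4.53 and a range of -8.58 to 4.61. The summed relative signal of the 15 was 65.5 to 87.2 on APL arrays and 757 to 876 on Control arrays. Of the 8 markers of other nephron segments 1 was lower, Umod (-3.85, adjusted p = 0.0345), 1 was higher, Aqp2 (1.93, adjusted p = 0.025), and 6 did not pass, with a median log2 fold change of -0.55. Their summed relative signal was 8.93 to 29.0 on APL arrays and 44.4 to 64.6 on Control arrays. Most of the Control sum came from Umod, with a mean relative signal of 4.95 in APL and 36.4 in Control. Nothing is therefore read from this sum about the markers of other nephron segments apart from Umod. Lrp2, the endocytic receptor megalin, fell by 2.15, and Hnf4a, a transcription factor of the mature segment, fell by 2.44. Of 5 endothelial markers 4 were lower, with a median log2 fold change of -3.73. Of 5 macrophage markers tested 3 were higher, Cd68, Lyz2 and Cd14. Adgre1 (-0.34) and Csf1r (-0.24) did not pass, and Cd163 and Mrc1 were below the detection filter. The summed relative signal of the 5 was 8.95 to 13.2 on APL arrays and 2.81 to 3.91 on Control arrays, most of it from Lyz2. Of 6 hepatocyte markers Alb was well above background on no array, and of the 2 that were tested F2, prothrombin, fell by 6.87 and Ahsg did not pass at -0.44. Of 4 fibroblast markers tested 1 was higher and 1 lower, and none of 2 T cell or 2 B cell markers tested passed. Of 11 markers of dividing cells tested 5 were higher and 0 lower, among them Mki67 (2.32), and their summed relative signal was 13.0 to 23.8 on APL arrays and 6.04 to 9.12 on Control arrays. The part of these cell types in the changes of the enzymes was not tested.

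Among 45 other genes of pyrimidine metabolism, 39 were matched on the array and 38 tested, Cda being below the detection filter. Of these 3 were higher and 8 lower, beside 11.9% and 11.5% of all genes, and the median log2 fold change was 0.00. Of the 8 decreases 5 were nucleotidases or enzymes of breakdown end products, a group of 10 with 0 higher members.

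**Figure D3:**
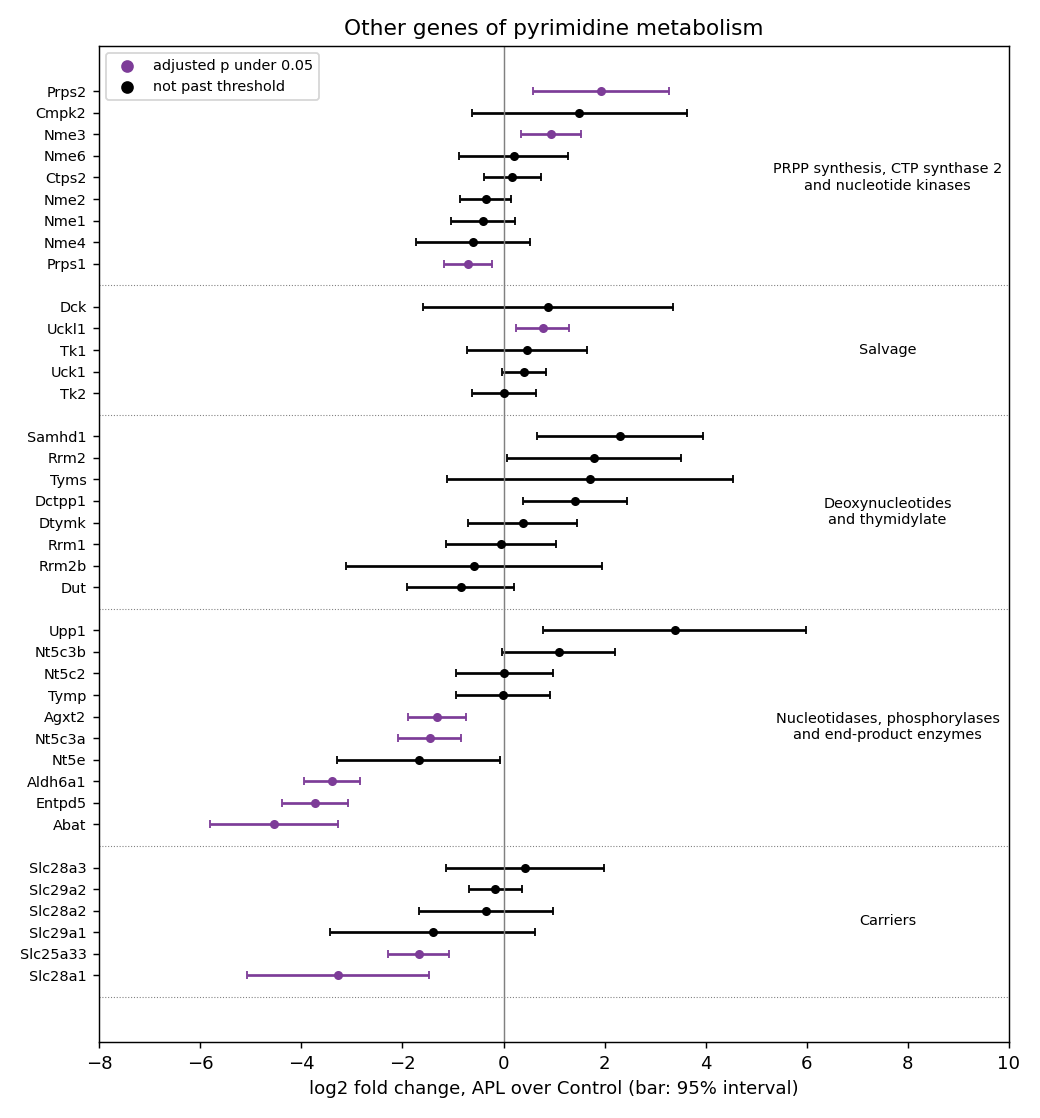
Log2 fold change, APL over Control (horizontal axis; bars are 95% intervals, n = 4 each), of the 38 other pyrimidine genes tested, grouped by role. Purple points passed the threshold: 5 genes of the nucleotidase and end-product group are to the left of 0, Abat the furthest at -4.55.

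Abat, which transaminates beta-alanine, had relative signals of 0.0803, 0.0674, 0.121 and 0.145 on the APL arrays, against 4.14, 1.43, 4.74 and 1.02 on the Control arrays. It fell by 4.55 ± 0.55 (adjusted p = 0.000911), and its smallest change under the settings tried was -2.39, with normexp and scaling to the 75th percentile. Aldh6a1, the semialdehyde dehydrogenase that follows in thymine and valine breakdown, had relative signals of 4.27, 2.63, 2.85 and 2.18 on the APL arrays, against 34.5, 29.4, 27.9 and 30.2 on the Control arrays, and fell by 3.40 ± 0.24 (adjusted p = 7.76e-05). Agxt2, the mitochondrial aminotransferase of beta-aminoisobutyrate, had 39.0, 38.1, 33.0 and 22.0 on the APL arrays, against 76.6, 94.5, 64.7 and 89.0 on the Control arrays. It fell by 1.32 ± 0.25 (adjusted p = 0.00806), a call that was lost without scaling between arrays (-0.68, adjusted p = 0.0709). For all 3 genes each APL array lay below each Control array.

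Entpd5, a nucleoside diphosphatase of the endoplasmic reticulum, fell by 3.73 ± 0.28 (adjusted p = 0.000106), with a mean relative signal of 0.449 ± 0.182 in APL and 5.69 ± 0.766 in Control (SD, n = 4 each). Nt5c3a, a nucleotidase that acts on pyrimidine monophosphates, fell by 1.46 ± 0.27 (adjusted p = 0.00737), a call lost without scaling between arrays (-0.83, adjusted p = 0.0811). Upp1, the other uridine phosphorylase, had relative signals of 0.737, 1.36, 1.02 and 1.22 on the APL arrays, against 0.00752, 0.197, 0.416 and 0.170 on the Control arrays. Every APL array was above every Control array, but Control replicate 1 was far below the other Control arrays and the value of 3.38 ± 1.13 did not pass (adjusted p = 0.0653). Upp1 and Upp2 thus had fitted values of opposite sign, and only that of Upp2 passed.

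Among the carriers 2 of 6 were lower and 0 higher, beside 11.5% and 11.9% of all genes tested. With so few genes nothing is read from this count. Slc28a1, the concentrative pyrimidine nucleoside carrier of the brush border, fell by 3.27 ± 0.78 (adjusted p = 0.0209), a call lost without APL replicate 1 (-2.89, adjusted p = 0.0513), APL replicate 4 (-2.81, adjusted p = 0.0544) or Control replicate 1 (-3.02, adjusted p = 0.0527). Slc25a33, a mitochondrial pyrimidine nucleotide carrier, fell by 1.67 ± 0.26 (adjusted p = 0.00321). Of 8 deoxynucleotide and thymidylate genes 0 passed the threshold in limma, and 3 had an unadjusted p under 0.05. Nearest to it were Samhd1 at 2.30 ± 0.71 (adjusted p = 0.0503) and Dctpp1 at 1.41 ± 0.45 (adjusted p = 0.0547). Tyms, thymidylate synthase, at 1.71 ± 1.23 (adjusted p = 0.348) and Rrm2, a ribonucleotide reductase subunit, at 1.79 ± 0.75 (adjusted p = 0.123) did not pass either. Samhd1 and Tyms were each well above background on only 2 Control arrays, with 1 Control array at the floor.

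Of 9 genes for PRPP synthesis, CTP synthase 2 and nucleotide kinases 2 were higher and 1 lower. Over all genes tested 11.9% were higher and 11.5% lower, so nothing is read from this count or from that of salvage genes below. Of the PRPP synthetases Prps2 rose by 1.93 ± 0.58 (adjusted p = 0.0476) and Prps1 fell by 0.71 ± 0.21 (adjusted p = 0.0418). The value of Prps1 was -0.19 with the mean of its probes (adjusted p = 0.708) and -0.07 without scaling between arrays (adjusted p = 0.799). Nme3, a nucleoside diphosphate kinase, rose by 0.94 ± 0.26 (adjusted p = 0.033). Of 5 salvage genes tested 1 was higher, Uckl1, a uridine-cytidine kinase homologue (0.78 ± 0.23, adjusted p = 0.0421). These 4 calls were near the threshold. With slide as a block Prps1 (adjusted p = 0.0564) and Uckl1 (adjusted p = 0.0593) did not pass, and with the replicate block none of the 4 did (adjusted p from 0.0726 for Prps2 to 0.0932 for Nme3). Prps1 lost its call without any 1 of the 8 arrays, Prps2 without any but Control replicate 1, Uckl1 without any but Control replicate 4, and Nme3 without APL replicate 2, 3 or 4 or Control replicate 2 or 3 (adjusted p up to 0.106 for Prps2 without APL replicate 1). With normexp and the 75th percentile these 4 genes, Nt5c3a, Slc28a1 and Slc25a33 did not pass (adjusted p from 0.0739 for Prps2 to 0.654 for Slc28a1).

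The genes most like 2 of the enzymes in their pattern over the 8 arrays were ranked by Pearson's r among genes with a symbol, for the largest fall and the largest rise among called enzymes measured in both groups. For Dpys they were Gsta3 (r = 0.997), Grhpr (r = 0.996) and Ddt (r = 0.995), and for Ctps1 they were Kmt2e, Eif4a1 and Tmem9 (r = 0.974, 0.974 and 0.973). These r values span both groups and so largely describe the difference between the groups.

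**Figure D4:**
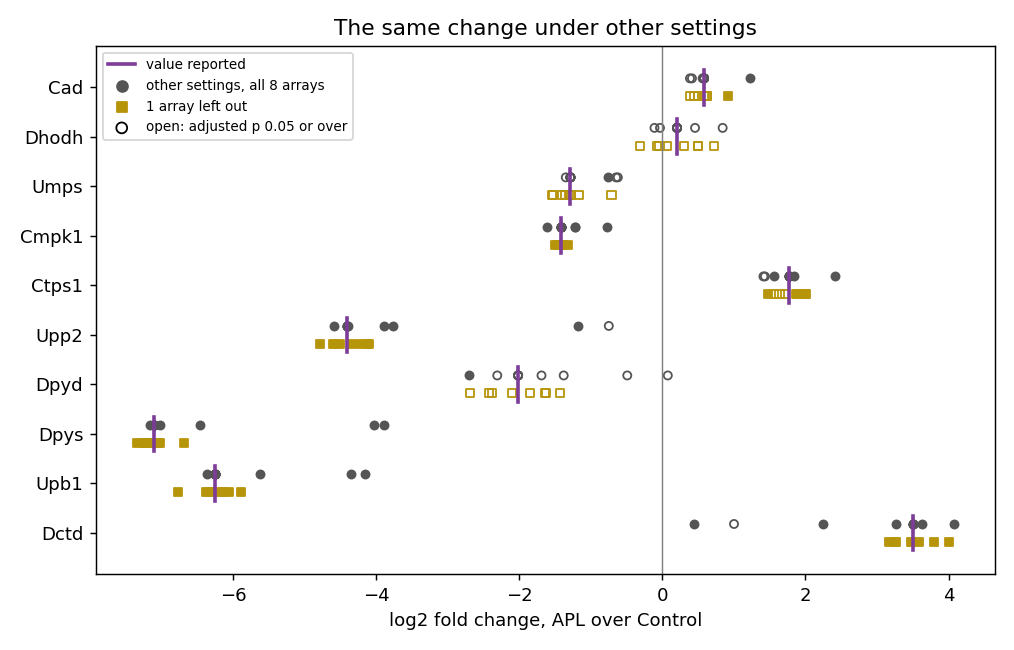
Log2 fold change, APL over Control (horizontal axis), of each enzyme transcript as reported (bar), under the other settings on all 8 arrays (circles) and with 1 array left out (squares); open symbols have an adjusted p of 0.05 or over. Dpys, Upb1 and Cmpk1 stay filled throughout, while Upp2 reaches -0.75 with the normexp correction. Dctd is drawn at fitted values, which with the normexp correction lie below the bound given for it.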

How the data were processed

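Kidney RNA of 4 APL and 4 Control samples was labelled with Cy3 and hybridised to 1 array per sample. Per the file headers, the deposited scanner files were made with Agilent Feature Extraction 10.5.1.1 and hold linear intensity values: a processed signal from which background and spatial trend had been removed, the median intensity of each spot and of its local background, and flags. A deposited series table holds log2 values of the authors. Set against the scanner files it was log2 of the processed signal scaled to the 75th percentile and centred on each probe's median (94% of values within 0.01; r of 0.9993 to 0.9999 per array; column medians from -0.135 to 0.0759), so scale, centring and direction are known. That table served as an alternative.

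Each array held 42877 spots of 30367 probes. Spots flagged non-uniform (2 to 64 per array) were dropped and spots of a probe averaged, which left 65 tested genes with a missing value, none of them an enzyme described here; no spot was saturated. The processed signal was scaled to each array's 75th percentile, floored at 0.005 and put on the log2 scale, and probes well above background on at least 4 of 8 arrays were kept. RefSeq accessions (GRCr8) gave 1 symbol to 18635 probes and none to 11732. The brightest kept probe stood for a gene. APL was set against Control by lmFit and eBayes of limma 3.58.1 (R 4.3.3) with no covariate, p-values were adjusted over all 21416 genes, and the code was tested on simulated data. Precision is limited by the number of arrays.

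The enzymes, gene lists and tests were chosen with earlier results of these data known. All 10 enzymes may be named, of the other pathway genes those called and some that were not, the latter chosen after their values were seen; markers are given by list. For 1 further pathway gene, left out of the list and its counts, results are not reported here. Alternatives were other background corrections, scalings, filters, floor and probe rules, the authors' table, slide or replicate number as a block, and leaving out each array.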

Additional observations from a re-analysis of the deposited data

Results flagged for a closer look

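Over the enzymes and the called pathway genes, 42 groups of 4 arrays were checked for an array whose gap to its nearest neighbour took nearly the whole range of the group (Dixon's criterion), and 1 was found; chance gives about 1 in 20 groups. Entpd5 on APL replicate 2 stood at -0.47 (log2 relative signal), with the other APL arrays between -1.53 and -1.42. Entpd5 kept its direction and its call with that array left out.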

How the results depend on the processing

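With normexp and the 75th percentile, which called 2013 genes in all against 5026, the synthesis genes called were 1, the breakdown genes 2 and the other pathway genes 6, against 2, 4 and 11 as reported. The 4 breakdown genes include Dctd, which passed the detection filter through the APL arrays alone. The breakdown genes called were also 2 when every array had to be well above background, since Upp2 and Dctd then left the test. With the mean of a gene's probes 1 synthesis gene was called. The median of the breakdown genes was -0.75 with normexp and the 75th percentile, -1.19 with normexp and quantile normalization, -3.76 without scaling and -6.26 with every array well above background. That of the synthesis genes was 0.84 without scaling. Normexp with the 75th percentile moved the median of all genes to 0.36, quantile normalization to -0.11 and no scaling to 0.60; without scaling 83.7% of called genes were higher, against 50.8%. With 1 array left out, 1 to 3 synthesis, 4 breakdown and 6 to 10 other pathway genes were called, and the medians ran from -0.32 to 0.72 for synthesis and -4.78 to -4.10 for breakdown. Correlations between the deviations of same-numbered samples were weak (0.01, 0.01, 0.05 and -0.02), although 5 of 8 samples correlated best with their own number. These values do not settle whether the numbers pair samples. The replicate block called 2 synthesis and 4 breakdown genes and 7 other pathway genes, 3258 genes in all. No call of an enzyme turned its direction. Signal over background limits Upp2, Dpyd, Dpys, Upb1 and Dctd, which were dim on arrays of at least 1 group.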
